A study of Rattus norvegicus with 6 samples.

Results

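The TNF superfamily is the set of ligands, receptors and TRAF adaptor proteins that takes its name from tumour necrosis factor. It was followed here in RNA sequencing of rat alveolar tissue, the part of the jaw that holds the teeth. Members were taken by symbol: all genes named Tnfsf or Tnfrsf with a number, plus 17 others such as Tnf, Fas, Cd40 and Traf1, without the RANKL, osteoprotegerin and TWEAK genes (Tnfsf11, Tnfrsf11a, Tnfrsf11b, Tnfsf12 and Tnfrsf12a). This gave 42 of the 37203 genes in the table: 16 ligands, 7 receptors with a death domain, 13 receptors that bind TRAF proteins, 2 decoy or other receptors, and 4 TRAF adaptors. Traf5 has no row under that symbol and was not analysed here. By title the 6 libraries are case, with the numbers 5, 6 and 9, or control, with the numbers 5, 6 and 10. All came from rats whose teeth were moved. The source field reads without corticision for case and with corticision for control, corticision being a surgical cut through the cortical bone around the tooth. These words run opposite to the usual sense of case and control; groups are named by title here, and differences are given as case minus control. The sources used here do not give strain, sex, age, time after surgery or whether each library is a separate animal, so the p-values reflect only the spread among these libraries, which may be technical.

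Ligands of this family are mostly trimeric proteins on the cell surface, some of them shed by proteases, and their receptors lack enzyme activity of their own. Receptors with a death domain can recruit adaptors such as TRADD and FADD and lead to caspase activation, while the others bind TRAF proteins and lead to NF-kappaB and MAP kinase signalling. In bone, TNF is known to promote osteoclast formation together with RANKL, and in marrow the ligands BAFF and APRIL sustain B cells and plasma cells.

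Upstream sequences of 4 members are shown because their transcripts carry the values below: the founding ligand Tnf, the ligand Eda, whose mean was lower in case, and the B cell receptors Tnfrsf13b and Tnfrsf13c, whose means were higher in case. These 4 members, and the motifs marked in them, were chosen after the values had been seen. Each run is the 250 bases before the RefSeq gene start in the rat assembly GRCr8, 5′ to 3′ on the gene's own strand. They lie at chr20:3626435-3626684 (plus strand), chrX:69118570-69118819 (plus strand), chr10:46301086-46301335 (plus strand) and chr7:115618648-115618897 (minus strand). Capitals mark letters that match GAGGAA (a core bound by ETS factors and PU.1) or TATAAA on either strand.
Tnf: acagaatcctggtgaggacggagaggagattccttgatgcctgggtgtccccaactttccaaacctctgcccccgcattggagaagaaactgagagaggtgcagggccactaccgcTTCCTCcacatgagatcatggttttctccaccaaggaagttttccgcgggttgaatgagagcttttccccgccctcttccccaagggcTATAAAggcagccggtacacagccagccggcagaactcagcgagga
Eda: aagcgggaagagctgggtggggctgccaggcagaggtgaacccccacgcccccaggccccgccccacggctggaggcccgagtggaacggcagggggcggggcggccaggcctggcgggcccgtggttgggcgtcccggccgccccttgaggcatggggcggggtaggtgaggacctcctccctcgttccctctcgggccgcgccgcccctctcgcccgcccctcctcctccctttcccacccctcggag
Tnfrsf13b: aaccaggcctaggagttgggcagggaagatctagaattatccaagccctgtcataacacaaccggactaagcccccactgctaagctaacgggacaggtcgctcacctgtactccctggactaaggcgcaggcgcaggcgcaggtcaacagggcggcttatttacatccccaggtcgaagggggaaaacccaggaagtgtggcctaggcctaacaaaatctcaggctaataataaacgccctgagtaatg
Tnfrsf13c: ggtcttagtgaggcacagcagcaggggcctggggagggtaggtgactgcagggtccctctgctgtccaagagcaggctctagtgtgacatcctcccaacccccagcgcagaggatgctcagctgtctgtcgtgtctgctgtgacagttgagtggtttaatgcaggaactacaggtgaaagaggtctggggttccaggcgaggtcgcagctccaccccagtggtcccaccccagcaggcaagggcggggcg
In Tnf the capitals mark GAGGAA on the opposite strand and TATAAA, which begins 46 bases before the start. The windows of Eda, Tnfrsf13b and Tnfrsf13c hold neither motif. RefSeq windows were found for 33 of the 42 members, as 34 windows. Of these, 11 (32.4%) hold GAGGAA, against 23.3% of all 33469 windows of that length, and 8 (23.5%) hold TATAAA, against 12.9% of all. These matches describe letters only, and none of them was tested for binding.

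Library totals ranged from 10886303 to 14433740 counts, and bone transcripts were abundant in every library, with Col1a1 between 36039 and 74749 CPM (read counts relative to library size, adjusted by the trimmed mean of M-values). The 2 libraries numbered 5 stood apart in summed markers of some cell types. Summed neutrophil markers were at 6807 CPM in case 5 and 5491 in control 5, against 12893 to 17608 in the other 4 libraries. Summed oral epithelium markers were at 3337 CPM in control 5 and at most 34.1 elsewhere, and summed tooth-forming cell markers were at 453.7 CPM in case 5, 53.1 in control 5 and at most 7.48 elsewhere. In bulk tissue, fewer cells of a type and less RNA per cell cannot be told apart. Gene lengths are not in the table, so levels are compared between libraries and not between genes.

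No member of the family passed the test between case and control. Of the 42 members, 33 passed the filter on low counts and 9 did not. The edgeR quasi-likelihood test, with Benjamini-Hochberg adjustment over all 16066 genes tested, called 0 of the 33 members; it called 0% of all genes at the adjusted threshold of 0.05. The smallest adjusted p of a member was 0.999, and over 16 alternative settings the smallest in each ranged from 0.276 to 1. At an unadjusted p under 0.05 it gave 2 of 33 members, Eda and Tnfrsf22, and 4.15% of all tested genes. Case and control libraries did not overlap in 4 of 33 members, against 8.47% of all tested genes: Tnfrsf13b and Cd40 stood higher and Eda and Tnfrsf22 lower in case. DESeq2 called 0 members at the adjusted threshold and 0.131% of all genes. The median log2 fold change was 0.09 over the 33 members and -0.02 over all tested genes, and 19 of 33 members had a positive value, against 46.3% of all tested genes.

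**Figure D1:**
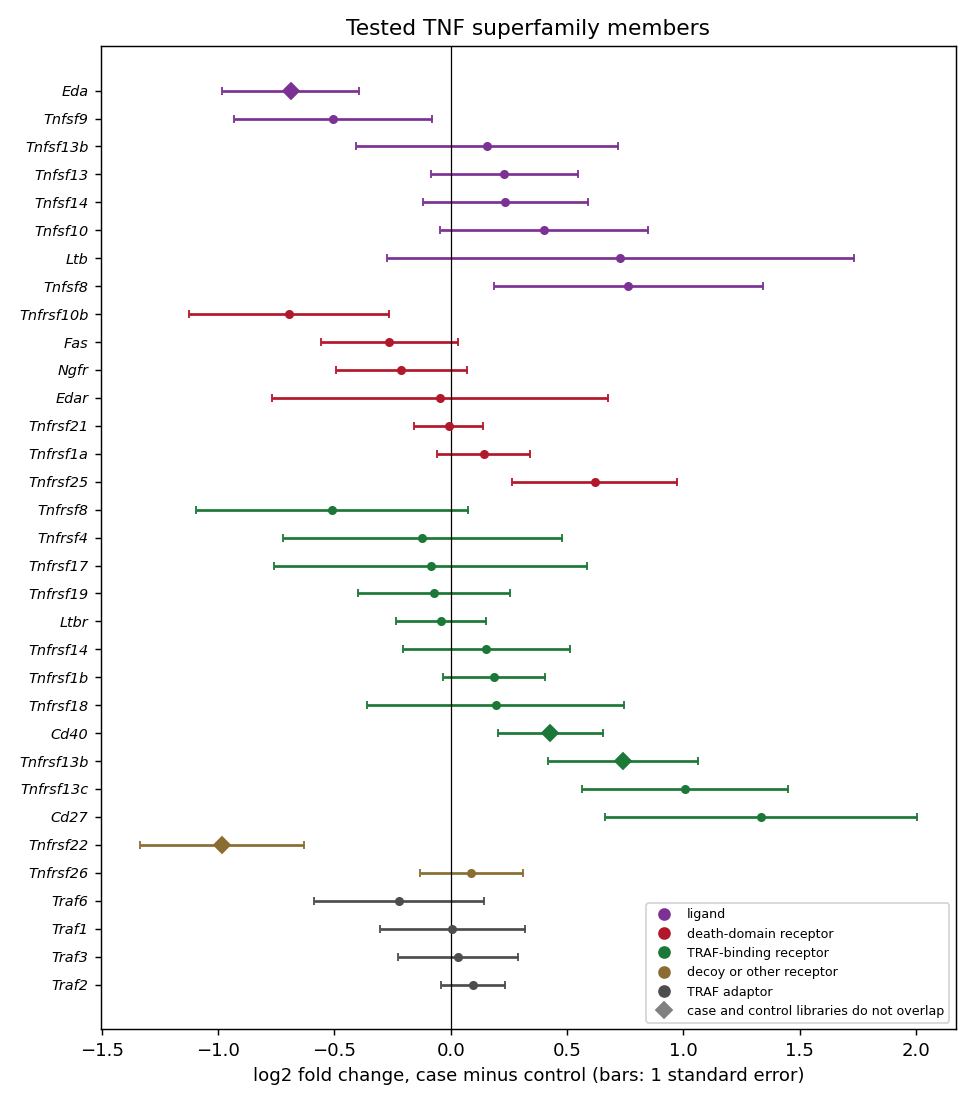
Log2 fold change (case minus control, x axis) of the 33 tested members, with bars of 1 standard error, ordered within each role. Diamonds mark the 4 members whose case and control libraries do not overlap; values run from -0.98 (Tnfrsf22) to 1.33 (Cd27).

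The 2 libraries numbered 5 stood together in many members. In 12 of 33 tested members they were the lowest of the 6, against 17.8% of all tested genes, and in 3 they were the highest, against 20% of all. The 12 were the ligands Tnfsf8, Tnfsf9, Tnfsf13, Tnfsf13b and Tnfsf14, the receptors Fas, Ltbr, Cd27, Tnfrsf1b, Tnfrsf8 and Tnfrsf17, and the adaptor Traf1. The 3 were Tnfrsf10b, Traf3 and Traf6. Summed markers of neutrophils, plasma cells, T and NK cells, monocytes and macrophages, osteoclasts and skeletal muscle were lowest in these 2 libraries, while those of B cells were highest in case 5. T and NK cell markers were at 126.6 CPM in case 5 and 99.7 in control 5, against 151 to 332.4 elsewhere. Monocyte and macrophage markers were at 849.5 and 802.2 CPM, against 1022 to 1201 elsewhere. Osteoclast markers were at 4258 and 4238 CPM, against 5822 to 7782 elsewhere, and skeletal muscle markers at 78.7 and 6.92 CPM, against 256.9 to 942.8 elsewhere. Their part in the members' levels was not tested. The number 5 was singled out after the values had been seen.

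**Figure D2:**
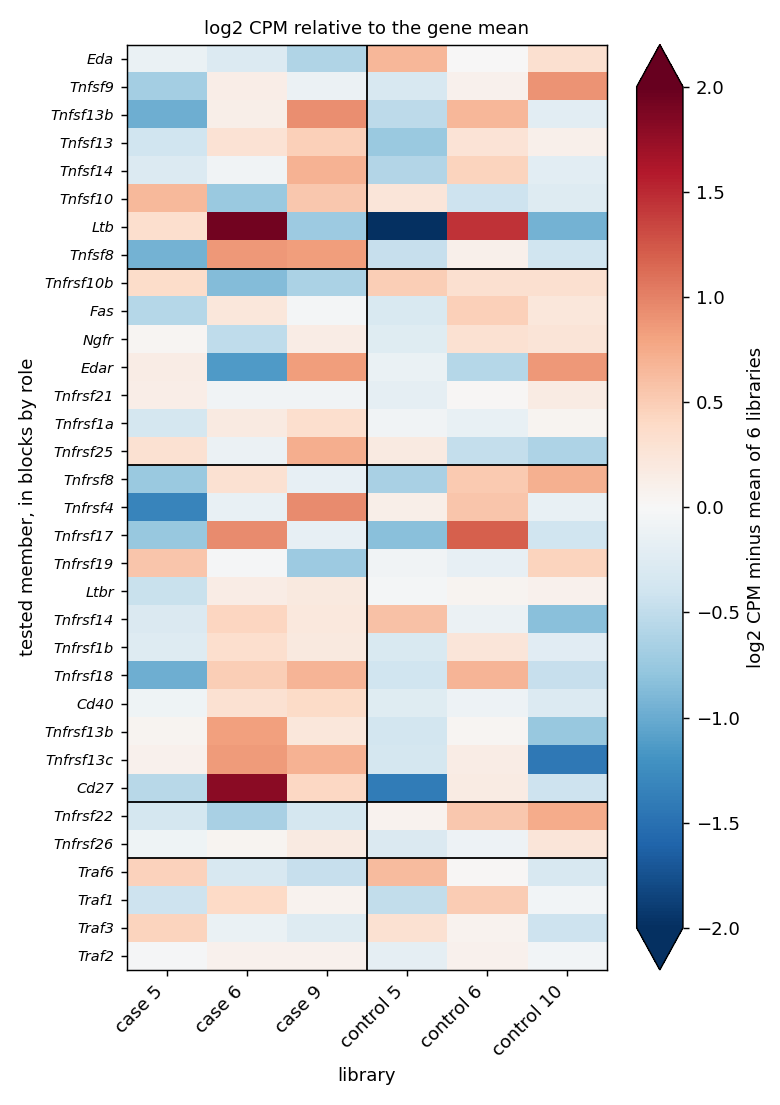
Log2 CPM of each tested member (rows, in blocks by role) in each library (columns), relative to its mean over the 6 libraries; red is above and blue below the mean. Case 5 and control 5 are the lowest of the 6 for 12 members, among them Tnfsf13b, Tnfrsf17 and Traf1, while Ltb and Cd27 are high in case 6.

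Among the ligands, the founding member and several lymphocyte ligands were too low to test. Tnf, the inflammatory cytokine made mainly by macrophages, had 0, 1 and 2 counts in case 5, 6 and 9 but 3, 13 and 4 counts in control 5, 6 and 10. All 3 control libraries thus lay above the case libraries, on 23 counts in all. Lta, its lymphocyte relative, had 0, 3 and 2 counts in case 5, 6 and 9, against 0, 2 and 0 in control 5, 6 and 10. Cd40lg, the T cell ligand of Cd40, had 4, 11 and 14 counts in case 5, 6 and 9 against 1, 14 and 5 in control 5, 6 and 10. Faslg, the ligand of the death receptor Fas, had 4, 3 and 7 counts in case against 6, 2 and 8 in control. In both ligands the groups overlapped. Tnfsf18, which encodes the ligand of GITR, had 1, 9 and 3 counts in case against 0, 5 and 6 in control. Tnfsf15, which encodes TL1A, the ligand of Tnfrsf25, had at most 3 counts in a library, Cd70 at most 1, and Tnfsf4, which encodes OX40 ligand, was listed at 0 in all libraries but control 10, with 1 count. With a 0, counting error alone leaves room for 3 counts, or 0.2 to 0.274 CPM in these libraries. Hprt1, a gene every cell uses, was itself at 0 counts in case 5, control 5 and control 6 and at 118 in case 6, so expression cannot be bounded from a listed 0 in this table.

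Of the 8 ligands tested, 6 had a positive fold change, with a median of 0.23. Eda, or ectodysplasin, the ligand that guides the growth of teeth and other skin appendages, was at 4.71, 4.26 and 3.36 CPM in case 5, 6 and 9 and at 8.23, 5.19 and 6.49 CPM in control 5, 6 and 10. All case libraries were below all control libraries, with means of 4.11 ± 0.687 and 6.64 ± 1.52 CPM (SD, n = 3 in each group here and below). The log2 fold change was -0.69 (SE 0.29), with an unadjusted edgeR p of 0.0492 and an adjusted p of 0.999. Eda was highest in control 5, the library with the oral epithelium transcripts. Without control 5 the log2 fold change of Eda was -0.50 (SE 0.30), with an unadjusted edgeR p of 0.146. That library differs in more than epithelium, and the part of epithelium in the level of Eda was not tested. Its receptor gene Edar was at 0.266 to 1.51 CPM in case and 0.472 to 1.55 in control, and the groups overlapped.

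The groups overlapped in both ligands of the B cell survival system. Tnfsf13, which encodes APRIL, was at 62.2, 101 and 114.6 CPM in case 5, 6 and 9 and at 48.9, 99.3 and 88.3 CPM in control 5, 6 and 10. Tnfsf13b, which encodes BAFF, was at 1.44, 3.26 and 5.80 CPM in case and 2.01, 4.80 and 2.56 CPM in control. In both genes the 2 libraries numbered 5 were the lowest, and the fold changes were 0.23 (SE 0.32) and 0.16 (SE 0.56) on the log2 scale. Tnfsf13 lies beside Tnfsf12 in the genome, and as the sources used here do not say whether counting used strand, reads could be shared between neighbours.

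Ltb, which encodes the membrane anchor of lymphotoxin, had the largest standard error of the 33 tested members. It was at 3.36, 10.4 and 1.51 CPM in case 5, 6 and 9 and at 0.525, 7.40 and 1.28 CPM in control 5, 6 and 10. The 2 libraries numbered 6 were the highest in their groups, and the log2 fold change of 0.73 (SE 1.0) became -0.34 without case 6 and 2.52 without control 6. Tnfsf8, the ligand of CD30, was at 0.639, 2.66 and 2.61 CPM in case and 0.963, 1.5 and 1.01 CPM in control, a log2 fold change of 0.76 (SE 0.58). Tnfsf9, the ligand of 4-1BB, was at 2.16, 3.92 and 3.28 CPM in case and 2.80, 3.78 and 6.76 CPM in control, at -0.51 (SE 0.42), of which -0.04 was left without control 10. Tnfsf10, which encodes the death ligand TRAIL, was at 1.93 to 5.27 CPM in case and 2.44 to 3.94 in control. Tnfsf14, which encodes LIGHT, was at 12.1 to 24.0 CPM in case and 9.80 to 20.1 in control. The groups overlapped in all 4.

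Receptors with a death domain were all tested, and 5 of 7 fold changes were negative, with a median of -0.05. Tnfrsf1a, the widely expressed TNF receptor 1, was at 136 CPM in case 5, 196.6 in case 6 and 218 in case 9, and at 164 to 179 CPM in the control libraries. Case libraries lay on both sides of the control range, and the log2 fold change was 0.14 (SE 0.20). Fas, the receptor through which lymphocytes kill target cells, was at 8.87, 15.6 and 12.9 CPM in case 5, 6 and 9 and at 10.7, 18.6 and 15.5 CPM in control 5, 6 and 10. Within each group the library numbered 5 was the lowest and that numbered 6 the highest, and the log2 fold change was -0.26 (SE 0.29).

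Tnfrsf10b and Tnfrsf25 had the largest changes of this role, and neither passed. Tnfrsf10b, the TRAIL receptor, was at 3.04, 1.2 and 1.43 CPM in case and 3.33, 2.91 and 2.92 CPM in control. Case 5 lay between the control libraries and the other case libraries lay below them all. The log2 fold change was -0.70 (SE 0.43), and leaving out 1 library took it from -1.19 (SE 0.38, without case 5) to -0.45 (SE 0.46, without case 6). Tnfrsf25, the TL1A receptor of T cells, was at 6.55, 4.86 and 8.91 CPM in case and 6.04, 3.78 and 3.38 CPM in control, with case 6 below control 5 and a log2 fold change of 0.62 (SE 0.35). Summed T and NK cell markers ran from 126.6 to 332.4 CPM in case and from 99.7 to 218.8 CPM in control. All 7 of the tested T and NK markers, of 8 on the list, had a positive fold change, against 46.3% of all tested genes. The groups did not overlap in 0 of them, against 8.47% of all tested genes, and 0 were called after adjustment. Per 1000 CPM of these markers, Tnfrsf25 stood at 32.5 ± 17.2 in case and 33.4 ± 23.7 in control. On this scale means were lower in case for Tnfrsf4 (9.15 and 17.8) and Tnfrsf18 (13.5 and 18.5). They were higher for Cd27 (32.5 and 19.0) and Ltb (23.8 and 15.8), and the groups overlapped in each gene. Nkg7 weighs heavily in the sum, with means of 163 CPM in case and 108 in control, against 9.50 and 4.74 for Cd3e. These ratios were computed after the levels had been seen.

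Ngfr, the low-affinity neurotrophin receptor of Schwann cells and stromal cells, was at 8.07, 5.45 and 8.66 CPM in case and 6.56, 9.68 and 9.41 CPM in control. The groups overlapped, with a log2 fold change of -0.21 (SE 0.28). Summed Schwann cell and nerve markers were at 113 to 139.7 CPM in case and 127 to 209 CPM in control. All 6 of those markers had a negative fold change, with 0 called after adjustment, and their part in Ngfr was not tested. Tnfrsf21, or death receptor 6, had the smallest standard error of the role, at 48.9 to 56.0 CPM in case and 45.2 to 57.2 in control, for a log2 fold change of -0.01 (SE 0.15).

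The receptors that bind TRAF proteins held the 2 members with the highest fold changes, Cd27 and Tnfrsf13c, both known as lymphocyte genes, and 2 of the 4 members with separate groups. Tnfrsf13b, which encodes TACI, a receptor for BAFF and APRIL, was at 7.67, 13.2 and 8.66 CPM in case 5, 6 and 9 and at 5.69, 7.63 and 4.30 CPM in control 5, 6 and 10. The lowest case library stood just above the highest control library, with 96 counts in case 5 and 97 in control 6. Means were 9.83 ± 2.93 and 5.87 ± 1.68 CPM, a log2 fold change of 0.74 (SE 0.32) with an unadjusted edgeR p of 0.0529 and an adjusted p of 0.999, and was 0.47 without case 6. Tnfrsf13c, which encodes the BAFF receptor of mature B cells, was at 5.27, 9.05 and 8.07 CPM in case and 3.85, 5.51 and 1.74 CPM in control. Case 5 lay below control 6, so the groups overlapped. The log2 fold change of Tnfrsf13c was 1.01 (SE 0.44). It was 0.59 with the title number as a replicate block, which compares only the libraries numbered 5 and 6. Scaled by library totals, the groups of Tnfrsf13c did not overlap. Cd40, through which T cells help B cells and macrophages, was at 8.15, 10.7 and 11.3 CPM in case and 7.27, 8.03 and 7.13 CPM in control. The groups were separated by a narrow gap between case 5 and control 6, which both had 102 counts before scaling to library size. The log2 fold change of Cd40 was 0.43 (SE 0.23), with an unadjusted edgeR p of 0.098. Tnfrsf17, which encodes the plasma cell receptor BCMA, was at 1.68, 5.79 and 2.61 CPM in case and 1.58, 6.93 and 2.19 CPM in control, and the groups overlapped.

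B cell markers also had higher means in case, as did mast cell markers, while endothelial markers had lower means. The edgeR test called 0 of the markers of these cell types after adjustment over all genes. Of all tested genes, 46.3% had a positive fold change, and in 8.47% the groups did not overlap. The 7 on the list all had a positive fold change, and 2 of them, Ms4a1 and Cd22, had groups that did not overlap. Their summed level was 155 to 220.2 CPM in case and 56.5 to 156.2 CPM in control, with control 10 the lowest, so the sums overlapped. None of the 7 was at 0, but Cd79a was at 0.333 CPM in case 6, where Cd79b was at 62.6 CPM. Per 1000 CPM of summed B cell markers, Tnfrsf13b stood at 55.0 ± 19.8 CPM in case, against 56.1 ± 19.8 in control. The same ratio for Cd40 was 56.9 ± 18.3 in case and 77.2 ± 42.9 in control, and for Tnfrsf13c it was 42.4 ± 16.0 and 31.9 ± 7.93. For Cd27 the mean ratio was 44.8 in case and 33.0 in control, for Ltb 28.0 and 26.7, and for Tnfrsf17 19.0 and 33.2. On this scale the groups overlapped in all of these genes. These ratios were computed after the levels had been seen, and carry no test. Summed mast cell markers were at 31.2 to 71.2 CPM in case and 21.3 to 26.0 CPM in control, without overlap; all 4 had a positive fold change, and Tpsab1 and Cpa3 had separate groups. All 5 endothelial markers had a negative fold change, and Pecam1 and Emcn had separate groups, with sums of 227.7 to 291.7 CPM in case and 288.3 to 354.2 CPM in control. The part of these cell types in the members' levels was not tested.

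**Figure D3:**
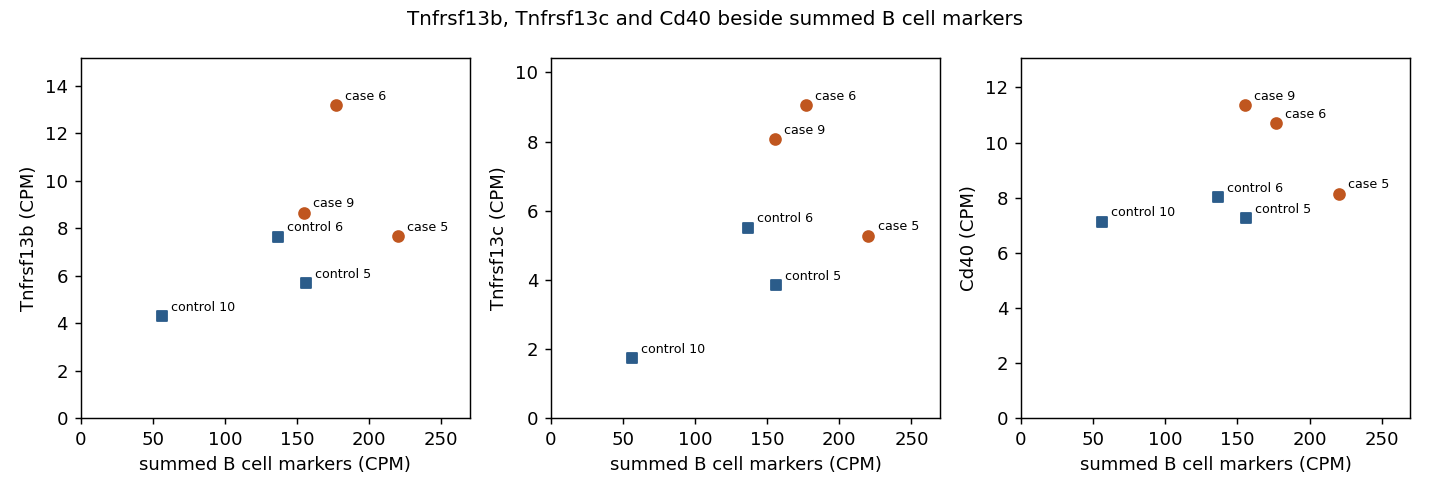
Level of Tnfrsf13b, Tnfrsf13c and Cd40 (y axes, CPM) against the summed level of 7 B cell markers (x axes, CPM) in each library, case as circles and control as squares. Control 10, at 56.5 CPM of markers, is lowest for all 3 genes, while case 5 has the most markers but not the highest level of any of them.

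Cd27, a receptor of T cells and memory B cells, had the highest fold change of the family and rested on 1 library. It was at 2.80 CPM in case 5, 15.1 in case 6 and 5.63 in case 9, and at 1.49, 4.72 and 3.11 CPM in control 5, 6 and 10. The log2 fold change was 1.33 (SE 0.67), and 0.43 without case 6. The groups overlapped in the co-stimulatory receptors of T cells. Tnfrsf4 (OX40) was at 0.799 to 4.46 CPM in case and 2.01 to 3.38 in control, and Tnfrsf18 (GITR) at 1.36 to 4.62 and 2.01 to 4.64. Tnfrsf8 (CD30) was at 0.399, 0.998 and 0.672 CPM in case 5, 6 and 9 and at 0.438, 1.18 and 1.37 CPM in control 5, 6 and 10, with a log2 fold change of -0.51 (SE 0.58). Tnfrsf9 (4-1BB) was too low to test, at 4, 7 and 4 counts in case 5, 6 and 9 against 3, 18 and 2 in control 5, 6 and 10.

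The groups also overlapped in the other receptors of this role. Tnfrsf1b, the TNF receptor 2 of leukocytes and endothelium, was at 53.9, 81.7 and 74.3 CPM in case and 52.3, 76.7 and 55.3 CPM in control, a log2 fold change of 0.19 (SE 0.22). Ltbr, the lymphotoxin beta receptor of stromal and myeloid cells, was at 89.9 CPM in case 5, 136 in case 6 and 140.5 in case 9, and at 119 to 131 CPM in control. Its log2 fold change of -0.04 (SE 0.19) turned to 0.16 without case 5 and 0.014 when scaled by library totals. Tnfrsf14, the LIGHT receptor also called HVEM, was at 28.5 to 47.4 CPM in case and 19.6 to 52.9 in control, with both extremes in the control group and a log2 fold change of 0.15 (SE 0.36). Tnfrsf19, or TROY, was at 70.1 CPM in case 5 and 28.8 in case 9, with the control libraries between them at 42.8 to 65.3 CPM.

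Tnfrsf22, known in mouse as a decoy receptor for TRAIL without a death domain, had the smallest p of the family. It was at 1.6, 1.26 and 1.6 CPM in case 5, 6 and 9 and at 2.19, 3.07 and 3.56 CPM in control 5, 6 and 10. These values rest on 19 or 20 counts in each case library and 25, 39 and 39 in control 5, 6 and 10, with no overlap. The log2 fold change was -0.98 (SE 0.35), with an unadjusted edgeR p of 0.0256 and an adjusted p of 0.999. Its relative Tnfrsf26 was at 11.1, 12.2 and 13.4 CPM in case and 9.54, 10.9 and 14 CPM in control, with overlapping groups. Both belong to a cluster of similar genes, between which the counting could split reads, so the value of Tnfrsf22 is uncertain.

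The TRAF adaptors, which carry the signal from most of these receptors, did not separate the groups. Traf2, the common adaptor of both TNF receptors, was at 39.3, 42.6 and 42.3 CPM in case and 35.4, 42.3 and 38.5 CPM in control, with a log2 fold change of 0.10 (SE 0.14). Traf1, which NF-kappaB is known to induce, was at 14.2, 25.1 and 20.0 CPM in case 5, 6 and 9 and at 13.5, 27.2 and 18.5 CPM in control 5, 6 and 10. Its group means were 19.8 ± 5.47 and 19.7 ± 6.92 CPM. Traf3, which holds back the noncanonical NF-kappaB pathway, was at 41.3, 27.5 and 25.3 CPM in case and 37.6, 31.7 and 22.8 CPM in control. Traf6, the adaptor of RANK and of Toll-like receptors, was at 10.8, 6.25 and 5.63 CPM in case and 12.3, 7.95 and 6.22 CPM in control. Traf3 and Traf6 were highest in the libraries numbered 5, where Traf1 was lowest.

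A list of 32 other genes that act below these receptors was read from the same fit, and 30 were tested. The edgeR test called 0 of them after adjustment over all genes, the smallest adjusted p being 0.999. At an unadjusted edgeR p under 0.05 stood 2 of 30, against 4.15% of all tested genes. In 3 of 30 (10%) the groups did not overlap, against 8.47% of all tested genes. All 3 stood higher in case, a direction in which 4.05% of all tested genes did not overlap. With the title number as a replicate block, 0 of 30 stood at an unadjusted p under 0.05. The median log2 fold change was 0.04. Rnf31, the catalytic subunit of the linear ubiquitin ligase that acts at TNF receptor 1, was at 45, 42.9 and 47.2 CPM in case and 35.9, 30.6 and 30.3 CPM in control, a log2 fold change of 0.48 (SE 0.14, unadjusted edgeR p 0.0101). Its partners Rbck1 (0.24, SE 0.15) and Sharpin (0.24, SE 0.17) also had positive log2 fold changes, with overlapping groups. Bid, which links death receptors to mitochondria, was at 28.8, 30.9 and 38.1 CPM in case and 19.9, 25.9 and 19.6 CPM in control, at 0.58 (SE 0.19, unadjusted edgeR p 0.0168). Tab2, a partner of the kinase TAK1, was the third with separate groups, at 0.11 (SE 0.13). Tnfaip3, which encodes the feedback inhibitor A20, was at 32.6 to 36.7 CPM in case and 34 to 53.2 in control, at -0.32 (SE 0.19). Rbck1, Sharpin and Tnfaip3 were named after their values had been seen.

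Leaving out the libraries numbered 5 brought more members to an unadjusted p under 0.05, and 0 past the adjusted threshold. Without both libraries numbered 5, edgeR gave 8 of 34 tested members, against 14.1% of all genes tested in that fit. They were Tnfrsf13b (log2 fold change 0.91), Cd40 (0.58), Cd27 (1.45), Tnfsf8 (1.10), Tnfrsf25 (0.97) and Tnfrsf14 (0.80), with positive values, and Tnfrsf22 (-1.17) and Tnfrsf10b (-1.11), with negative ones. Their smallest Benjamini-Hochberg adjusted edgeR p was 0.276, for Tnfrsf14. With the title number as a replicate block, the log2 fold change of Tnfrsf14 was -0.17, that of Tnfsf8 0.23 and that of Tnfrsf25 0.24. Case 9 and control 10 share their number with no other library, so these block values rest on the libraries numbered 5 and 6. Tnfrsf14 also turned negative without control 10 (-0.096) or case 6 (-0.014). Without case 5 alone there were 6 of 34, against 9.54% of all genes: Tnfrsf13b (0.92), Tnfrsf13c (1.23), Cd40 (0.59), Cd27 (1.76), Tnfsf8 (1.21) and Tnfrsf10b (-1.19). Without control 5 alone there were 2 of 34, against 7.32% of all genes, and without control 6 there were 4 of 33, against 4.23%. Without case 6, case 9 or control 10 there were 0, against 2.23%, 2.84% and 2.41% of all genes.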

How the data were processed

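Rat alveolar tissue was extracted with TRIzol, and single-end Ion Total RNA-Seq libraries were made, per the labels' protocols. Raw counts by gene symbol, in whole numbers for 6 libraries, were deposited by the authors. The sources used here name no aligner, counting program, genome build, annotation or use of strand. Columns were matched to libraries by title.

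Genes were filtered with filterByExpr, which left 16066 of 37203, scaled with TMM and fitted in edgeR 4.0.16 with its quasi-likelihood test (R 4.3.3; case against control, group alone, Benjamini-Hochberg threshold 0.05 over all tested genes). CPM values use TMM-scaled library sizes, and log2 CPM a prior count of 2. The script was tested on simulated data. Alternatives were other scalings and filters, DESeq2 1.42.0, limma-voom (limma 3.58.1), robust empirical Bayes, leaving out libraries, and the title number as a block. Levels by library are given for tested members with separate groups or an unadjusted p under 0.05, for 11 members set by name, and for up to 3 more per role with the largest fold change. Tnfsf13, Tnfsf13b and Tnfrsf17 fall outside this rule and were given by library after their values had been seen, as were most untested members, by count; others are given by range. Of the adaptor list, genes with an unadjusted p under 0.05 or separate groups were named. Members and lists were chosen with earlier results of these data known. The symbols Igj and Emr1 stand for the markers Jchain and Adgre1; Krt6a had no row. Promoter windows are from RefSeq, assembly GRCr8, which was not matched to the build of the counts.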

Additional observations from a re-analysis of the deposited data

How the results depend on the processing

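In each of the 16 alternatives 0 members and 0 genes of the adaptor list were called. Over all genes, edgeR called 0; DESeq2 called 21, and leaving out 1 library gave 0 to 2, the 2 being without control 5. Of the 33 tested members, 16 kept their direction in every alternative and 17 did not. The cause was not tested. Leaving out 1 library gave log2 fold changes from -0.15 to 0.16 for Ltbr, -0.19 to 0.21 for Traf3, -0.34 to 2.52 for Ltb, -0.20 to 0.34 for Traf1, -0.00076 to 0.34 for Tnfrsf1a, -0.026 to 0.29 for Tnfrsf26 and -0.54 to 0.095 for Traf6. Ltbr was at 0.014 when scaled by library totals and 0.14 without both libraries numbered 5, where Traf3 was at -0.0027. Over all alternatives the other 10 members that changed direction ranged from -0.74 to 0.86 (Tnfrsf17), -0.52 to 0.64 (Tnfsf13b), -1.14 to 0.32 (Tnfrsf4), -0.67 to 0.61 (Edar), -0.17 to 0.80 (Tnfrsf14), -0.39 to 0.73 (Tnfrsf18), -0.47 to 0.38 (Tnfrsf19), -0.12 to 0.11 (Tnfrsf21), -0.017 to 0.48 (Tnfsf13) and -0.11 to 0.60 (Tnfsf14). With the title number as a replicate block, Traf1 was at -0.019 and Traf3 at -0.034, and the count of members at an unadjusted p under 0.05 went from 2 to 1, and that of the adaptor list from 2 to 0. Only the numbers 5 and 6 occur in both groups, so the block values rest on the libraries with these numbers. Deviations from the group means correlated at 0.38 between the libraries numbered 5 and at 0.136 between those numbered 6. Between libraries of unlike number the correlations ran from -0.338 (case 5 and control 6) to 0.283 (case 9 and control 6). That between case 6 and control 10 was 0.145. Deviations within a group sum to 0, so these correlations are not independent of each other. The labels do not say that a number marks a shared animal or day. The median of the members ranged from -0.034 (replicate block) to 0.24 (without case 5). At 10886303 to 14433740 counts a library, the 9 members that could not be tested had at most 18 counts in a library.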

Other observations

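Outside the symbol rule stand 2 further receptors of the family. Relt, a receptor of lymphoid tissue, was at 22.9, 28.5 and 29.9 CPM in case 5, 6 and 9 and at 34.5, 27.7 and 20.2 CPM in control 5, 6 and 10, with overlapping groups and a log2 fold change of -0.02 (SE 0.23). Eda2r, the second ectodysplasin receptor, had 2, 0 and 0 counts in case against 2, 3 and 2 in control, too few to test. Edaradd, the adaptor of Edar, had 13, 3 and 6 counts in case 5, 6 and 9 against 16, 4 and 12 in control 5, 6 and 10, with a log2 fold change of -0.69 (SE 0.75). In both groups it was highest in the library numbered 5. Map3k7, which encodes the kinase TAK1, was too low to test, at 0.48 to 1.93 CPM in case and 0.315 to 5.16 CPM in control. As with Hprt1, another gene in wide use, its expression cannot be bounded from low values in this table.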
